A study of Mus musculus with 16 samples.

Results

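The genes described here are the 9 that encode the AMPA and kainate receptor subunits, Gria1 to Gria4 and Grik1 to Grik5. They were taken as the probes whose RefSeq accession belongs to one of these genes, which gave 14 of the 55681 transcript probes on the array and 9 of the 21368 genes that received a symbol. Gria1, Grik1, Grik4 and Grik5 had 1 probe each, and Gria2, Gria3, Gria4, Grik2 and Grik3 had 2 each. The brighter probe of such a gene, judged by its mean over all 16 arrays, stands for the gene below, and the other is called its second probe. A level is the log2 processed signal minus the 75th percentile of its own array, so 0 is that percentile, and levels of different probes are not on a common scale.

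AMPA and kainate receptors are ion channels opened by glutamate, the main excitatory transmitter of the cerebral cortex, and each channel is an assembly of several subunits. AMPA receptors, built from the Gria products, carry most of the fast excitatory current at synapses, and the subunit made from Gria2 keeps calcium out of the channel once its transcript has been edited. Kainate receptors need at least one of the primary subunits made from Grik1, Grik2 and Grik3, which the high-affinity subunits made from Grik4 and Grik5 can join. They act both before and after the synapse and modulate transmission. Astrocytes also express glutamate receptors, and which subunits they hold differs between brain regions.

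All cultures came from cerebral cortex of C57BL/6 mice with no stated genetic change, and 4 groups of 4 samples were profiled. Astrocyte Klotho and neuron Klotho cultures received 1 nM recombinant secreted Klotho, a circulating protein and co-receptor of the hormone FGF23, and astrocyte control and neuron control cultures received phosphate-buffered saline, all for 24 h. Neurons were from embryonic day 16 and were treated at day 14 in vitro. Astrocytes were grown in medium with serum from pups of postnatal day 0 to 5 and shaken for 15 h, with a stated purity above 98%, although their labels also carry embryonic day 16. The sources do not state whether the samples of a group came from separate cultures or animals, so each p-value here refers to sample-to-sample spread alone, and that spread may be technical.

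Between 57.5% and 67.3% of non-control spots were well above background on each array, no spot was saturated, and the correlation between arrays within a group ranged from 0.957 to 0.992. All neuron arrays lay on slide 1, with Klotho in row 2 and control in row 1, while astrocyte Klotho arrays lay on slide 3 and astrocyte control arrays on slide 2. Row and treatment therefore cannot be told apart in neurons, and slide, scan day and culture type cannot be told apart between cultures. In astrocytes slide and treatment cannot be told apart with the arrays grouped by their scanner files. The deposit also assigns 6 of the 8 astrocyte arrays to different samples in its scanner files and in its value table, and for 4 of them the treatment differs. Under the value table's assignment both treatments lie on each astrocyte slide. Treatment then cannot be told apart from slide column, with control in column 3 and Klotho in column 4. Groups follow the scanner files, and the value under the value table's assignment is given beside a named gene's change where that assignment turned its direction or moved it by over 1.5 times. All 12 astrocyte markers were above background on every astrocyte array, with a mean level of 3.36 to 3.96 in Klotho and 3.18 to 3.79 in control. In neuron cultures 11 to 12 of them were above background, at 1.08 to 1.67 in Klotho and 1.36 to 1.85 in control. Of 13 neuron markers, 8 to 10 were above background on the astrocyte arrays against 13 on every neuron array, and Slc17a7 and Neurod6 were above background on none of the astrocyte arrays. By limma at an adjusted p below 0.05, 11 of the 13 were lower in astrocytes between the control cultures and 12 between the Klotho cultures. Snap25 did not pass in either and differed little. It had 5.13 ± 0.55 in astrocyte Klotho and 5.01 ± 1.53 in astrocyte control, against 5.26 ± 0.07 in neuron Klotho and 5.09 ± 0.10 in neuron control (SD, n = 4 each). Microglial markers were all 11 above background on every astrocyte array, at a mean level of 2.43 to 3.13 in Klotho and 2.88 to 3.41 in control, against 7 to 10 of 11 in neurons at -3.07 to -1.49 in Klotho and -2.74 to -1.66 in control.

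RefSeq promoter windows of 250 bases before to 50 after the start of the gene were available for 6 of the 9 genes, Gria2, Gria4, Grik2, Grik3, Grik4 and Grik5. They are on build GRCm38.p6, which is not the build NCBI37 of the array design, and are used for their letters only. The 3 printed here belong to a gene that was lower in astrocyte cultures and carried a rare motif (Gria2, chr3:80802786-80803085, minus strand), to one that was lower and carried none of it (Grik3, chr4:125490446-125490745, plus strand), and to one whose level overlapped between the cultures (Grik4, chr9:42944322-42944621, minus strand). Capitals mark the RE1 core in Gria2, which is AGCACC, any 2 bases and GGACAG and is the element read by the repressor REST, and the GC box GGGCGG in Grik3 and Grik4, each searched on both strands.
Gria2 promoter: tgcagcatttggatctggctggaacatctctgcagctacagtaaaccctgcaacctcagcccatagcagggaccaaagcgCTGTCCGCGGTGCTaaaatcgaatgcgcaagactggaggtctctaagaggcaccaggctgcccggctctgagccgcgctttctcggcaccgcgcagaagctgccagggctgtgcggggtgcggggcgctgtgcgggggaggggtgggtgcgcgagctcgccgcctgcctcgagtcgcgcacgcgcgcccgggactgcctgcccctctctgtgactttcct
Grik3 promoter: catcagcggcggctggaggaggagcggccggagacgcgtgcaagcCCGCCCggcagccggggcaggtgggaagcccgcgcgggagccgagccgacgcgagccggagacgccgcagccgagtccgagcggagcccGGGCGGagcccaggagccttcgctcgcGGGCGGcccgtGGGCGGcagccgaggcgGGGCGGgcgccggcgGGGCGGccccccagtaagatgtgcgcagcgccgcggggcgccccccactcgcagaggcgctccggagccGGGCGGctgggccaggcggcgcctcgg
Grik4 promoter: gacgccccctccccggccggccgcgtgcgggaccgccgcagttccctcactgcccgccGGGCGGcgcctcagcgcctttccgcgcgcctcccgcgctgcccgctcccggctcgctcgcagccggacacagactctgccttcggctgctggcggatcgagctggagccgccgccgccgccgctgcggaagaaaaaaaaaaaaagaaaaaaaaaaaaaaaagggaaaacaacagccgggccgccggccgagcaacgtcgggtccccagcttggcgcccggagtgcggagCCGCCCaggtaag
Gria2 held 1 RE1 core, as CTGTCCGCGGTGCT at bases 81 to 94 of the window and thus on the reverse strand, 170 bases before the start. The motif was found in 17 of 32851 windows of this length (0.0517%) and in none of the windows of Gria4, Grik2, Grik3, Grik4 and Grik5. The GC box was found in 35.7% of all windows, 7 times in Grik3, 2 times in Grik4 and 2 times in Grik5, and not in Gria2, Gria4 or Grik2. These are matches of letters in a window and say nothing of what binds there.

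Most subunit genes were lower in astrocyte than in neuron cultures. Between the control cultures Gria1, Gria2, Gria4, Grik1, Grik2 and Grik3 were lower in astrocytes, Gria3 was higher, and Grik4 and Grik5 did not pass the threshold. By limma with Benjamini-Hochberg adjustment over all 36064 probes tested, at a threshold of 0.05, 10 of the 14 probes were lower and 1 was higher, against 52.2% of all probes called (30.3% lower, 21.8% higher). In 10 probes all astrocyte control values lay below all neuron control values and in 1 they lay above, against 31.5% and 22.2% of all probes. The median change of the 9 genes was -3.10 on the log2 scale, also with a gene below background at its bound, against -0.22 over all probes. In bulk samples, fewer cells of a type and less RNA per cell cannot be told apart. The levels by array, in the plot of all 9 genes, show how far the cultures lay from each other.

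**Figure D1:**
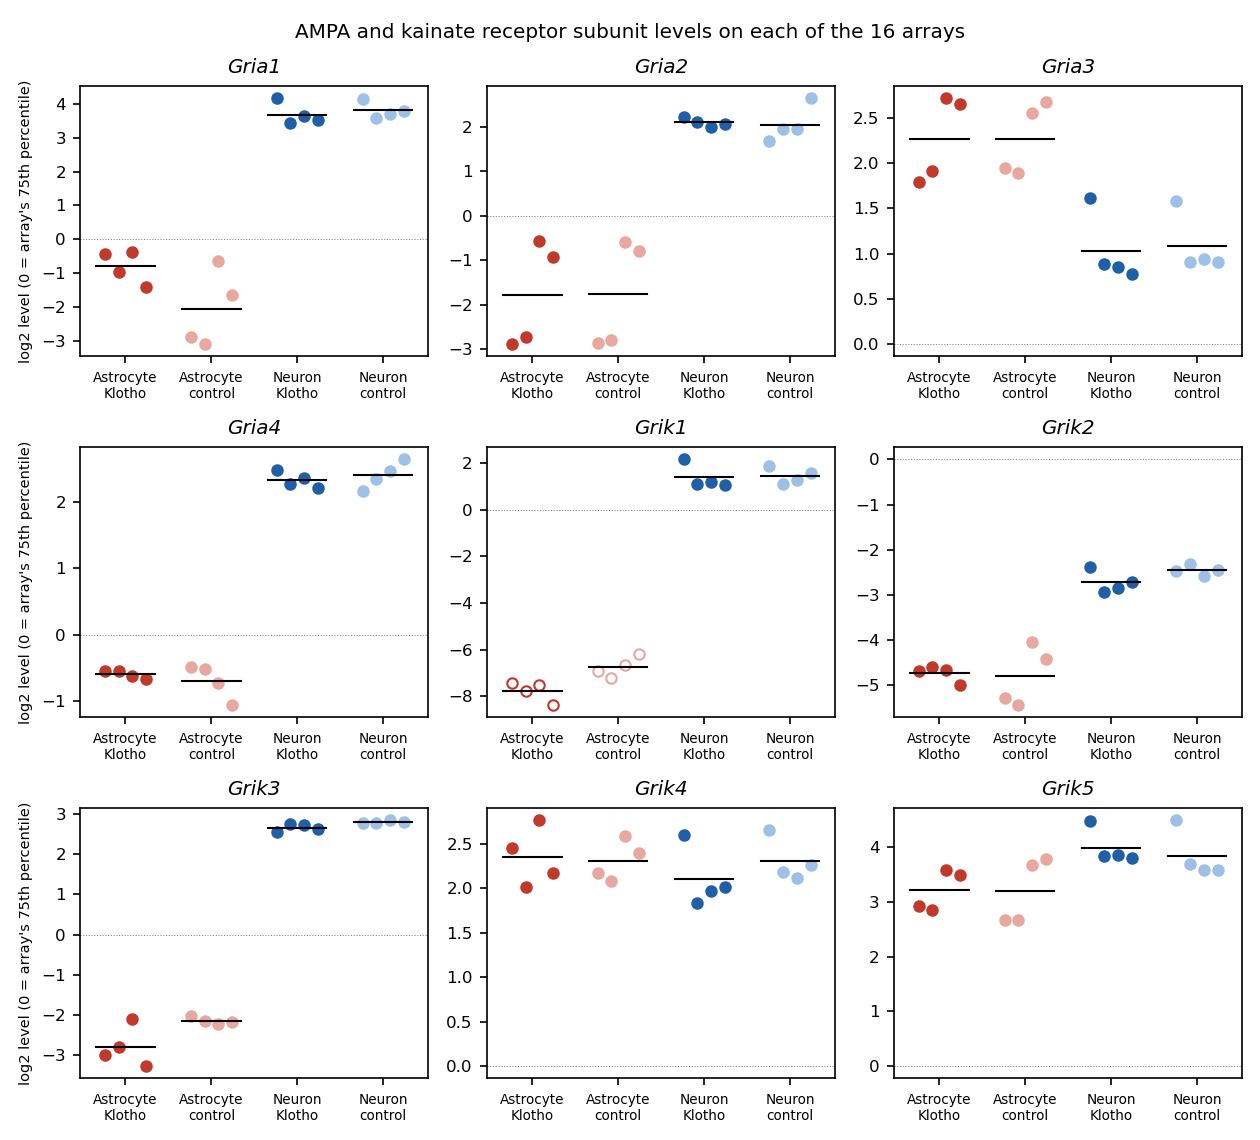
Level of the probe that stands for each gene on every array, in log2 relative to the 75th percentile of the array, with each gene on its own scale. Points are replicates 1 to 4 from left to right, lines are group means, and open points were not well above background. Gria1, Gria2, Gria4, Grik1, Grik2 and Grik3 lie lower on all 8 astrocyte arrays than on any neuron array, and Gria3 lies higher on all 8.

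Among the AMPA subunits, Gria1, which encodes a subunit of receptors added to synapses during plasticity, lay at -0.43, -0.96, -0.37 and -1.40 on the astrocyte Klotho arrays and at -2.88, -3.09, -0.65 and -1.64 on the astrocyte control arrays. On the neuron arrays it lay at 4.16, 3.43, 3.63 and 3.51 with Klotho and at 4.15, 3.58, 3.70 and 3.79 in control. No astrocyte value came within 3 log2 units of a neuron value, and the astrocyte control arrays were the most scattered. Gria1 was 58.5-fold lower in astrocyte than in neuron control cultures, a log2 change of -5.87 ± 0.51 (SE, n = 4 per group, limma adjusted p = 1.41e-05). With the astrocyte arrays grouped by the value table it was -4.89 ± 0.52 (adjusted p = 3.23e-05, limma).

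Gria2 lay at -2.88, -2.72, -0.57 and -0.92 on the astrocyte Klotho arrays and at -2.85, -2.79, -0.58 and -0.78 on the astrocyte control arrays. On the neuron arrays it lay at 2.23, 2.11, 2.00 and 2.06 with Klotho and at 1.67, 1.95, 1.95 and 2.64 in control. The astrocyte values fell into 2 pairs in both treatments, replicates 3 and 4 above replicates 1 and 2, and all of them were below every neuron value. Its change between the control cultures was -3.80 ± 0.56 (adjusted p = 4.42e-04, limma). The second Gria2 probe was not well above background on any astrocyte array and averaged 0.02 ± 0.50 in neuron Klotho and 0.28 ± 0.51 in neuron control (SD, n = 4 each). For such a probe only a bound can be given, from the lowest signal well above background on each astrocyte array, and it was at least 86.5-fold lower in astrocyte control cultures (adjusted p = 2.27e-06, limma).

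Gria3 ran the other way. It lay at 1.79, 1.91, 2.72 and 2.66 on the astrocyte Klotho arrays and at 1.94, 1.90, 2.55 and 2.68 on the astrocyte control arrays, against 1.61, 0.88, 0.85 and 0.78 with Klotho and 1.59, 0.91, 0.94 and 0.91 in control in neurons. In both cultures 1 set of arrays stood apart, replicates 3 and 4 in astrocytes and replicate 1 in neurons, yet the cultures did not overlap. Gria3 was 2.27-fold higher in astrocyte control cultures, a log2 change of 1.18 ± 0.27 (adjusted p = 0.00535, limma). Its second probe had a change of 0.88 ± 0.34 (adjusted p = 0.0550), with overlapping groups, and passed the threshold with quantile normalization (0.94, adjusted p = 0.0467) and with arrays scaled to their median (0.92, adjusted p = 0.0279). Microglial markers, listed above, were also higher in the astrocyte cultures, where 10 of 11 passed the test, and their part in the Gria3 level was not tested.

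Gria4 was the least scattered AMPA gene in astrocytes, at -0.54, -0.54, -0.62 and -0.66 on the Klotho arrays and -0.49, -0.52, -0.72 and -1.06 on the control arrays. In neurons it lay at 2.48, 2.27, 2.35 and 2.21 with Klotho and at 2.16, 2.34, 2.47 and 2.64 in control. Both of its probes separated the cultures on every array, with changes of -3.10 ± 0.21 (adjusted p = 3.04e-06) and, for the second probe, -4.53 ± 0.28 (adjusted p = 1.69e-06, limma) between the control cultures. The probes thus had the same direction and different sizes.

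Of the primary kainate subunits, Grik1 was not well above background on any of the 8 astrocyte arrays. On the neuron arrays it was above background throughout, at 2.15, 1.10, 1.19 and 1.04 with Klotho and at 1.87, 1.09, 1.26 and 1.55 in control. It was at least 189-fold lower in astrocyte than in neuron control cultures (adjusted p = 1.04e-07, limma), which is a bound because the astrocyte signal was not measured above background.

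Grik2 was low on its probe in both cultures but above background on all 16 arrays. It lay at -4.68, -4.59, -4.66 and -4.99 in astrocyte Klotho and at -5.28, -5.43, -4.03 and -4.42 in astrocyte control, against -2.39, -2.93, -2.84 and -2.71 in neuron Klotho and -2.47, -2.31, -2.57 and -2.44 in neuron control. No astrocyte array reached the lowest neuron array. The change between the control cultures was -2.34 ± 0.32 (adjusted p = 2.89e-04), and -2.17 ± 0.45 for the second probe (adjusted p = 0.00342, limma), which was above background on 3 of the 4 astrocyte control arrays.

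Grik3 had the tightest neuron values of the 9 genes, 2.56, 2.74, 2.72 and 2.62 with Klotho and 2.79, 2.77, 2.84 and 2.80 in control. In astrocytes it lay at -2.99, -2.80, -2.11 and -3.27 with Klotho and at -2.02, -2.13, -2.23 and -2.17 in control. The gap between the cultures was many times the spread within any of the 4 groups. Grik3 was 30.7-fold lower in astrocyte control cultures, a change of -4.94 ± 0.16 (adjusted p = 9.41e-08, limma). Its second probe was near background in neurons and not above it on any astrocyte array, which left a bound of at least 1.67-fold lower (adjusted p = 1.08e-04).

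The high-affinity kainate subunits differed little. Grik4 lay at 2.45, 2.01, 2.76 and 2.16 in astrocyte Klotho and at 2.16, 2.08, 2.58 and 2.39 in astrocyte control, against 2.59, 1.83, 1.96 and 2.01 in neuron Klotho and 2.65, 2.18, 2.12 and 2.26 in neuron control. The 4 groups overlapped, and the change between control cultures was 0.00 ± 0.21 with a 95% interval of -0.47 to 0.47 (adjusted p = 0.996, limma). A change of 1 log2 unit in either direction lies outside that interval.

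Grik5 lay at 2.94, 2.85, 3.59 and 3.49 in astrocyte Klotho and at 2.68, 2.68, 3.68 and 3.79 in astrocyte control. In neurons it lay at 4.47, 3.84, 3.86 and 3.80 with Klotho and at 4.50, 3.70, 3.58 and 3.59 in control. Replicates 3 and 4 were again the higher astrocyte arrays, and in the control cultures they overlapped with the neurons. The change between control cultures was -0.64 ± 0.35 with a 95% interval of -1.42 to 0.15 (adjusted p = 0.156, limma).

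The cultures treated with Klotho share no array with the control cultures and were compared in the same way. Of 13 probes tested, 10 were lower and 2 higher in astrocytes, against 63.6% of all probes called (36.0% lower, 27.6% higher), and all 7 genes called between the control cultures were called in the same direction. Gria1 had a change of -4.47 ± 0.28 (adjusted p = 5.16e-07), or -5.46 ± 0.42 (adjusted p = 4.63e-06, limma) grouped by the value table. The change was -3.87 ± 0.50 for Gria2 (8.85e-05), -2.92 ± 0.16 for Gria4 (2.15e-07), -2.01 ± 0.19 for Grik2 (9.47e-06) and -5.45 ± 0.25 for Grik3 (7.66e-08). Grik1 was at least 141-fold lower (adjusted p = 1.26e-08). Gria3 was higher by both probes, with changes of 1.24 ± 0.29 and 1.14 ± 0.27 (adjusted p = 0.00392 and 0.00491, limma). Grik5, which had not passed in the control cultures, was lower here by -0.78 ± 0.25 (adjusted p = 0.0187), but without astrocyte Klotho replicate 2 its adjusted p was 0.0523. The test of whether the culture difference of Grik5 itself depended on Klotho gave -0.14 ± 0.44 (adjusted p = 0.9996). The change of Grik4 was 0.24 ± 0.24 (adjusted p = 0.390).

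**Figure D2:**
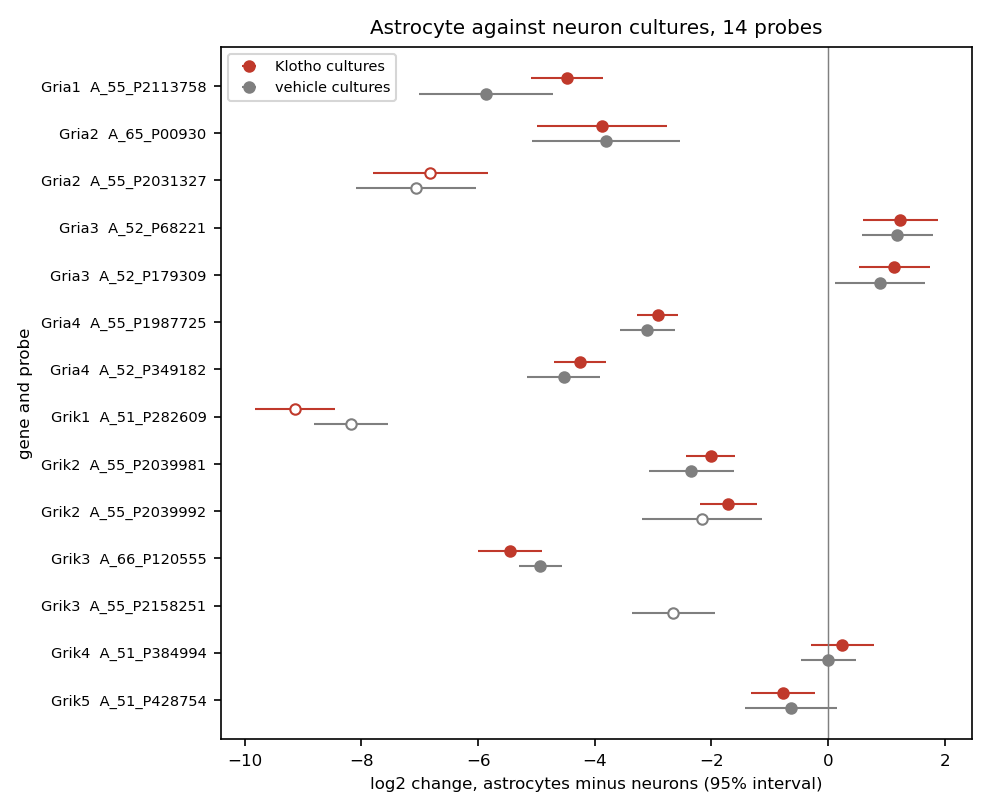
Change of each of the 14 probes in log2, astrocyte minus neuron cultures, with 95% intervals from limma, for Klotho cultures (red) and vehicle cultures (grey). Open points had at least 1 array not well above background, so that their size is not a measured fold, and the second Grik3 probe was not tested in Klotho cultures. Gria3 lies right of 0 in both, Grik4 spans 0, and the probes of Gria1, Gria2, Gria4, Grik1, Grik2 and Grik3 lie left of 0.

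No subunit probe was called between Klotho and control neurons. All 14 probes were tested and 0 were higher or lower, against 0.120% of 34073 probes called, all of them lower. At an unadjusted p below 0.05 the count was also 0, against 4.05% of all probes. The changes of the 9 genes ran from -0.27 ± 0.14 for Grik2 to 0.15 ± 0.24 for Grik5, with a median of -0.07 against -0.02 over all probes, and every adjusted p was 0.999 (limma). Grik3 was the only gene whose groups did not overlap, with all 4 Klotho values given above below all 4 control values, as in 2.62% of all probes. Its change was -0.14 ± 0.09, with a 95% interval of -0.35 to 0.07. The intervals for the AMPA genes were -0.56 to 0.31 for Gria1, -0.40 to 0.50 for Gria2, -0.58 to 0.47 for Gria3 and -0.37 to 0.22 for Gria4, so a change of 1 log2 unit lies outside each of them. Those of Grik1 (-0.70 to 0.55), Grik2 (-0.58 to 0.05), Grik4 (-0.64 to 0.23) and Grik5 (-0.40 to 0.70) also leave it out.

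In astrocytes 11 probes of 8 genes were tested, since the probe of Grik1 and the second probes of Gria2 and Grik3 were not above background on all 4 arrays of either group. Again 0 were higher or lower, and limma called 0% of all 32155 probes. On simulated data this test called 0% of set changes of 1 log2 unit and 38% of changes of 2. The absence of calls therefore does not exclude changes of that size. The simulated spread was taken around the treatment means, so differences between array rows counted as noise in it. A test with a row term was not simulated. At an unadjusted p below 0.05, 2 of the 11 probes passed, against 3.54% of all probes. They were Gria1, with a change of 1.28 ± 0.54 and a 95% interval of 0.06 to 2.50, and Grik3, with -0.65 ± 0.27 and an interval of -1.26 to -0.04 (adjusted p = 0.9999 for both, limma). Neither separated the groups. The difference in Gria1 rested on the row 1 arrays, replicates 1 and 2, with 2.29 between Klotho and control in row 1 and 0.26 in row 2, and under the value table's assignment it was -0.69. Grik3 gave -0.82 in row 1, -0.49 in row 2 and -0.26 under the value table's assignment. Interneuron markers moved in the direction of Gria1, with 9 of 10 above background and a mean level of -3.02 to -2.32 on the Klotho arrays, against 5 to 9 of 10 and -4.12 to -2.79 on the control arrays. Oligodendrocyte lineage markers moved in the direction of Grik3, with 12 to 13 of 13 above background and a level of -1.10 to 0.09 with Klotho, against 13 of 13 and -0.05 to 0.47 in control. Markers of meningeal fibroblasts and vessels were also higher with Klotho (mean -1.60 against -2.02), and microglial markers lower (2.89 against 3.18). The neuron (-2.93 against -3.04), astrocyte (3.66 against 3.56) and neural progenitor lists (0.95 against 0.83) were slightly higher. Grouped by the value table, interneuron levels ran from -4.03 to -2.39 in Klotho and from -4.12 to -2.32 in control. Oligodendrocyte lineage levels then ran from -1.10 to 0.47 and from -0.37 to 0.22. The part of these lists in either gene was not tested. For the other 6 genes the changes ran from -0.02 ± 0.73 for Gria2 to 0.11 ± 0.20 for Gria4, and the interval of Gria2, -1.67 to 1.63, does not leave out a change of 1 log2 unit. Under the value table's assignment these 6 changes ran from -0.33 for Grik4 to 0.04 for Gria3, and Gria4 had -0.10. The width of the Gria2 interval includes the difference between array rows, described below, because the test had no row term. Within rows, Gria2 differed between Klotho and control by 0.02 in row 1 and by -0.06 in row 2, and no test was run within a row.

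The Klotho effect in astrocytes minus that in neurons was called for 0 of the 14 probes, against 0.0800% of 36235 probes (limma interaction term over 16 arrays). At an unadjusted p below 0.05, 2 of them passed, Gria1 with 1.40 ± 0.61 and Grik1 with -0.96 ± 0.43, against 4.85% of all probes, and both had an adjusted p of 0.9996. The Grik1 value compares neurons with astrocyte arrays on which it was not above background. When the astrocyte arrays were grouped by the value table, the difference was -0.57 for Gria1 and -0.19 for Grik1.

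**Figure D3:**
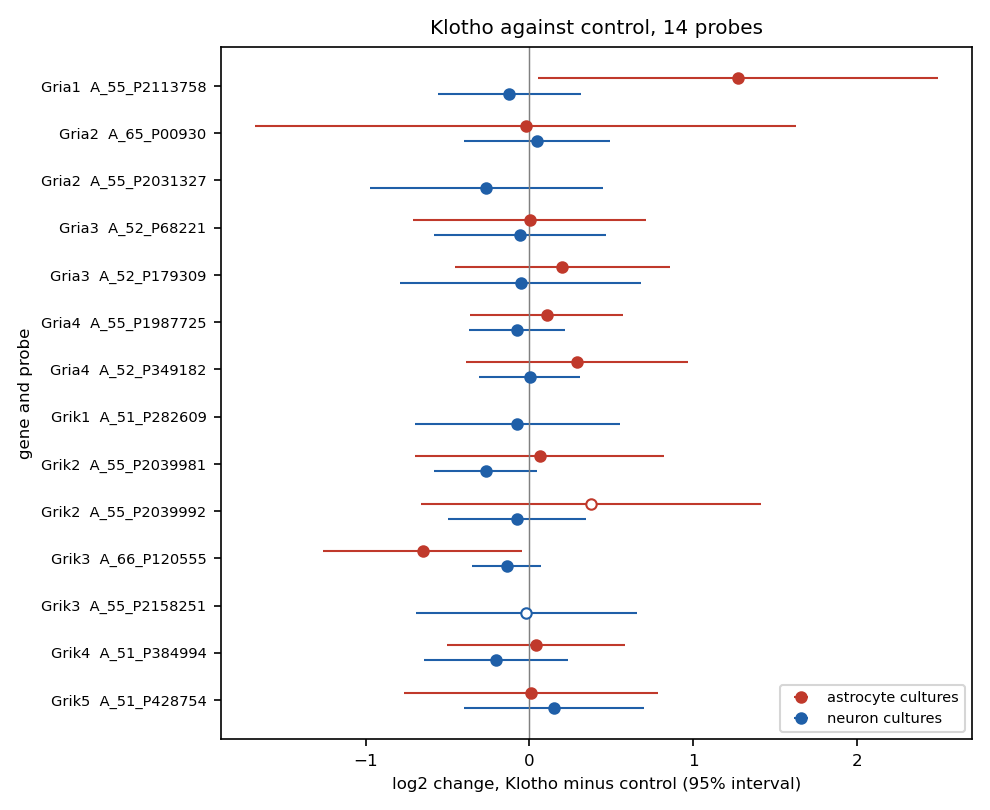
Change of each probe in log2, Klotho minus control, with 95% intervals from limma, for astrocyte cultures (red) and neuron cultures (blue). Open points had at least 1 array not well above background, and probes without a red point were not tested in astrocytes. The astrocyte intervals are wider except for the second Gria3 probe, and Gria1 and Grik3 in astrocytes are the ones that leave out 0.

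Within the astrocyte cultures, the array row on the slide separated Gria2, Gria3 and Grik5, whose groups overlapped between treatments. Row 2 held replicates 3 and 4 of both treatments and row 1 held replicates 1 and 2, so either assignment puts arrays of both treatments in each row. Of 11 probes tested, 5 (45.5%) were higher in row 2 and 0 lower, against 46.8% of 33036 probes called (23.4% higher, 23.4% lower). The share called was near that of all probes, so a difference by row is not particular to the subunits. The called genes were Gria2, Gria3 by both probes, Grik5, and Grik2 by its second probe only. What the rows differ in is not given in the sources used here, so position on the slide and the origin of the cultures cannot be told apart.

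Gria2 lay between -0.92 and -0.57 in row 2 and between -2.88 and -2.72 in row 1, and was 4.28-fold higher in row 2, a change of 2.10 ± 0.15 (SE, n = 4 per row, limma adjusted p = 0.00339). Within slide 3 the difference was 2.06 and within slide 2 it was 2.14. Gria3 lay between 2.55 and 2.72 in row 2 and between 1.79 and 1.94 in row 1. Its change was 0.77 ± 0.14 (adjusted p = 0.00370), with 0.84 within slide 3 and 0.70 within slide 2, and 0.61 ± 0.18 for the second probe (adjusted p = 0.0238). Grik5 lay between 3.49 and 3.79 in row 2 and between 2.68 and 2.94 in row 1, a change of 0.85 ± 0.15 (adjusted p = 0.00365), with 0.65 within slide 3 and 1.05 within slide 2. None of these 3 genes had overlapping rows.

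Both probes of Gria4 had rows that did not overlap in the opposite direction, at -1.06 to -0.62 in row 2 and -0.54 to -0.49 in row 1 for the probe that stands for it, with changes of -0.24 ± 0.15 (adjusted p = 0.225) and -0.57 ± 0.22 (adjusted p = 0.0599). Row 2 lay wholly below row 1 in 22.4% of all probes. Over both directions, 7 of the 11 probes had rows without overlap, against 42.4% of all probes. The second Grik2 probe had 1.05 ± 0.29 (adjusted p = 0.0176), while the probe that stands for Grik2 had 0.47 ± 0.27 (adjusted p = 0.179). Gria1 (0.83 ± 0.61), Grik4 (0.30 ± 0.18) and Grik3 (0.05 ± 0.32) did not pass. The count depends on the scaling. With arrays scaled to their median the median change of all probes was -0.42, against 0.01 here, and 25.5% of calls were higher, against 50.01%. Beside that shift, Gria2 was still called higher (1.66, adjusted p = 0.00218), Gria4 was called lower by both probes (-0.68 and -1.01, adjusted p = 0.0293 and 0.00814), and Gria3 (0.33, 0.216) and Grik5 (0.41, 0.0958) lost their calls, while Grik4 had -0.14 (0.649). With quantile normalization Grik4 was called higher (0.62, adjusted p = 0.0247) and the second Gria4 probe lower (-0.98, 0.0117), the second Grik2 probe lost its call (0.53, 0.0854), and Grik2 had -0.02 (0.945). The astrocyte marker list averaged 3.18 to 3.81 in row 2 and 3.53 to 3.96 in row 1, all 12 above background, and the neuron list -3.05 to -2.89 in row 2 and -3.16 to -2.82 in row 1.

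**Figure D4:**
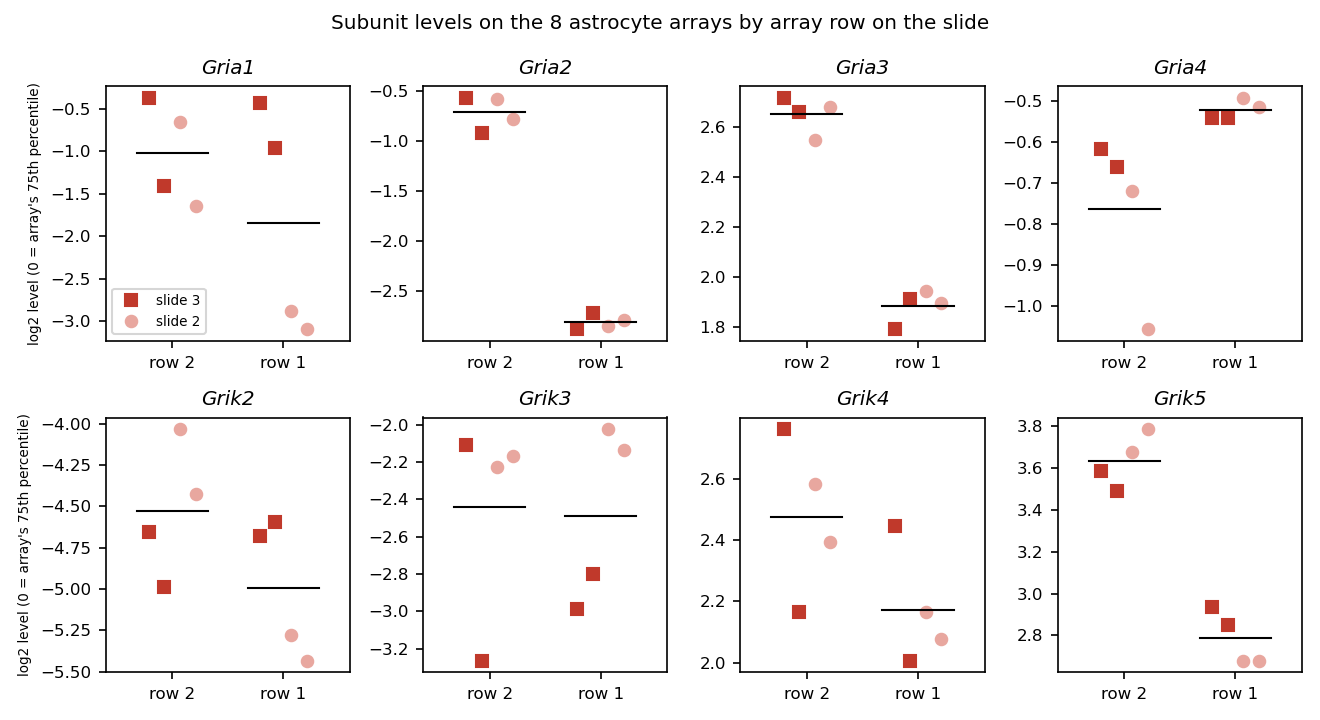
Level of the 8 genes measured in astrocytes by array row, in log2 relative to the 75th percentile of the array, each gene on its own scale. Squares are slide 3 and circles slide 2, and lines are the means of 4 arrays. Gria2, Gria3 and Grik5 lie higher on all 4 arrays of row 2, and Gria4 lies lower.

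Across the 8 astrocyte arrays, which share slides, rows and scaling, the subunits that differed by row had similar patterns. Genes singled out by the same row split resemble each other for that reason, so the values below add no support to it. As a description, r was 0.982 between Gria2 and Gria3, 0.966 between Gria2 and Grik5, 0.939 between Gria3 and Grik5, and -0.796 between Gria4 and Grik5. Among 14698 named genes above background on the same arrays, the closest in pattern to Gria2 were Uhrf1bp1 (r = 0.995), Chd8 and Tnik, and to Gria3 they were Brd9 (0.995), Prpf8 and Crybg3. Among those closest to Grik5 were Ptpn13 (0.996) and Ltbp3, and the closest to Gria1 were Cdh4 (0.985), Tfap2c and Col26a1. Over all 16 arrays and 13583 genes, where the culture types set most of the pattern, the closest to Gria4 were Shtn1 (0.996), Clvs1 and Stmn4, and to Grik3 B3gat2 (0.997), Fam155a and Brd3. Grik4, which overlapped between cultures, had a lower highest value, 0.923 with Os9.

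The partners of the receptors were followed through a list of 35 genes for auxiliary subunits, anchoring proteins and editing enzymes, of which 34 had a probe and 33 were tested between the control cultures. In astrocytes 24 of the 33 were lower and 3 higher, with a median change of -3.15, also with genes below background at their bounds, against 30.3% lower, 21.8% higher and a median of -0.22 over all probes. Cacng2, whose product stargazin carries AMPA receptors to synapses, was not well above background on any astrocyte array and was at least 363-fold lower than in neurons (adjusted p = 6.16e-08, limma). Dlg2, a scaffold gene of the postsynaptic density, had a change of -7.99 ± 0.26 (9.12e-08). Neto1, an auxiliary subunit of kainate receptors, averaged -3.48 ± 0.35 in astrocyte control and 3.20 ± 0.15 in neuron control (SD, n = 4 each), a change of -6.68 ± 0.22 (9.82e-08). Cnih3, a cornichon that binds AMPA receptors, had -7.52 ± 0.31 (2.31e-07). Both Dlg2 and Cnih3 were above background on only some astrocyte control arrays, 3 and 2 of 4.

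The 3 genes higher in astrocytes, named after their values were seen, were Shisa8 (2.52 ± 0.40, adjusted p = 7.03e-04, or 3.37 ± 0.39 grouped by the value table), Cpt1c (1.17 ± 0.26, 0.00504) and Dlg1 (0.67 ± 0.21, 0.0222). Of the editing enzymes, Adarb1, which edits the Gria2 transcript at the site that sets calcium entry, averaged 0.48 ± 0.11 in astrocyte control and 3.62 ± 0.20 in neuron control, a change of -3.15 ± 0.18 (adjusted p = 1.33e-06). Adar had a change of -0.24 ± 0.26 (adjusted p = 0.463). Between Klotho cultures 25 of 33 were lower and 4 higher, with a median of -3.20, against 36.0% lower, 27.6% higher and a median of -0.19 over all probes. The smallest p belonged to Neto1 (-7.32 ± 0.17), Cacng3 (at least 50.04-fold lower), Shisa7 (-6.27 ± 0.18) and Dlg2 (at least 246-fold lower), with adjusted p from 3.76e-09 to 1.68e-08.

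**Figure D5:**
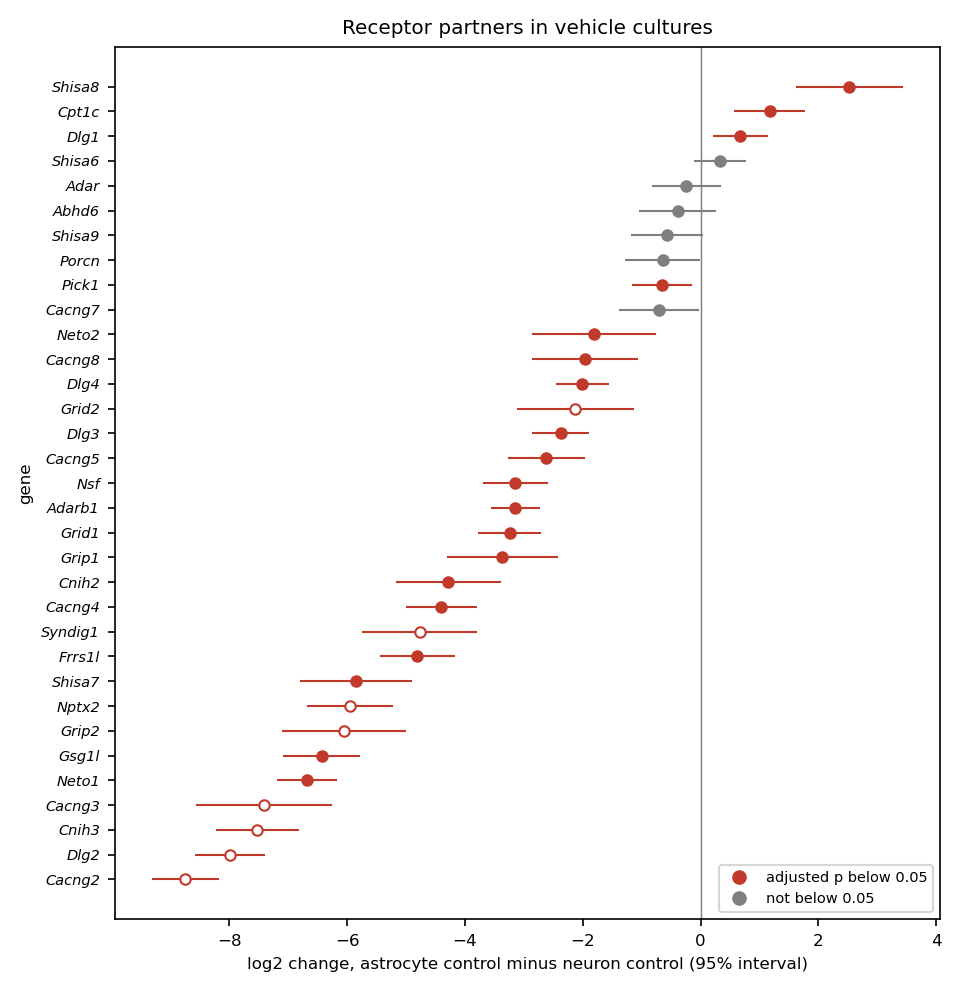
Change of the 33 tested partner genes in log2, astrocyte control minus neuron control, with 95% intervals from limma. Red points passed an adjusted p of 0.05 and open points had at least 1 array not well above background. The 3 red points right of 0 are Shisa8, Cpt1c and Dlg1.

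With Klotho, 0 of 33 partner genes were called in neurons and 0 of 25 in astrocytes (limma). The smallest p in neurons belonged to Shisa6, with -0.34 ± 0.16 (adjusted p = 0.999, unadjusted 0.0597, limma), followed by Grid1, Dlg4 and Pick1, with 0.31, 0.25 and 0.16. In astrocytes it belonged to Neto1, with -0.75 ± 0.24 and all 4 Klotho values below the control values, as in 1.49% of all probes (adjusted p = 0.9999, unadjusted 0.0114, the only one of the 25 below 0.05), followed by Grid1 (-0.40), Dlg4 (0.43) and Cnih2 (-0.71). Grouped by the value table, Neto1 turned to 0.10 ± 0.34 (unadjusted p = 0.784, limma), and Grid1 had -0.04, Dlg4 0.25 and Cnih2 -0.55. By array row, 3 of 25 were higher in row 2 and 2 lower, against 23.4% higher and 23.4% lower of all probes. Those named by the rule were Dlg3 (0.72 ± 0.17, adjusted p = 0.0100), Cpt1c (0.52 ± 0.16, 0.0236) and Grip1 (0.93 ± 0.31, 0.0342), which were higher, and Neto2 (-1.28 ± 0.25, 0.00437), the other auxiliary subunit of kainate receptors, which was lower.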

How the data were processed

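RNA from 16 samples was hybridised to one-colour arrays of design 028005, and spots were read with Feature Extraction 12.0.3.1 under protocol GE1_1200_Jun14, per the file headers. The deposited processed signal is a linear intensity, already background-subtracted by the authors' scanner software and not normalized between arrays, per the file headers. Flags of 0 or 1 mark spots well above background. The deposited value table holds a score that equals the z-score of the log2 intensity of 1 array in each column, to within 0.00502 SD. For 10 samples that array is the sample's own and for 6 it is another's.

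Spots flagged as outliers were dropped, spots of a probe were averaged, and log2 values were centred on the 75th percentile of each array. Probes were named through RefSeq accessions (28331 of 55681, 50.9%). Tested probes were those well above background throughout 1 or both of the groups compared. Tests used limma 3.58.1 in R 4.3.3 (lmFit, eBayes), with p adjusted by Benjamini and Hochberg over all probes tested, after a check on simulated data. The check took its spread around the means of the compared groups, so row differences counted as noise for Klotho in astrocytes. In that check, set changes of 1 log2 unit were called in 59% of probes for Klotho in neurons and 0% in astrocytes. The shares were 9% between vehicle cultures and 24% between rows. Changes of 2 log2 units were called in 87%, 38%, 60% and 71%, in the same order. Python 3.11.15, pandas 2.3.3 and matplotlib 3.10.9 were used. The members, lists and tests were chosen with earlier results of these data known. All members are named, and partner genes by up to 4 smallest p per comparison. The genes most alike in pattern were the 3 with the highest r, of which 1 is not reported here. Alternatives changed the background correction, scaling, filter, probe choice, source of values, assignment, blocks and replicates. Same-numbered Klotho and control arrays deviated together (r from 0.199 to 0.813 in neurons and 0.188 to 0.776 in astrocytes). The numbers coincide with the slide column in neurons and the slide position in astrocytes. The tests above were unpaired, and the numbers entered as pairs only in the alternative with a replicate block, given below.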

Additional observations from a re-analysis of the deposited data

Results flagged for a closer look

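In 7 of 56 groups of 4 arrays, 1 array lay far from the other 3 by Dixon's criterion, where chance gives about 2.8, and all 7 were neuron replicate 1. On the Klotho arrays these were Gria3, at 1.61 with the next value at 0.88, its second probe at 0.05 with the next at -0.98, Grik1 at 2.15 with the next at 1.19, and Grik5 at 4.47 with the next at 3.86. On the control arrays they were Gria3 at 1.59 with the next at 0.94, the second Gria2 probe at 1.04 with the next at 0.13, and Grik5 at 4.50 with the next at 3.70. Replicate 1 was the highest neuron array for 13 of 14 probes with Klotho and for 10 in control. Neither this count nor that of far-lying arrays was made over all probes, so neither can be read as particular to the subunits. Over 26815 probes, the deviations of the Klotho and control replicate 1 arrays from their group means had r = 0.813 in neurons. The neuron markers were also highest there, at a mean level of 3.71 with Klotho and 3.74 in control against 2.99 to 3.14 on the other neuron arrays, and interneuron markers were lowest, at 2.95 with Klotho and 2.92 in control against 3.45 to 3.60. Replicate 1 was also the lowest neuron array for astrocyte markers (1.08 with Klotho and 1.36 in control against 1.57 to 1.85), oligodendrocyte lineage markers (0.66 and 0.74 against 1.31 to 1.73) and microglial markers (-3.07 and -2.74 against -2.15 to -1.49). The part of these lists in these values was not tested. Without the replicate 1 arrays of both treatments, 0 subunit probes were called between Klotho and control neurons and 12 between cultures of either treatment. With all arrays kept, the shares of all probes called were 0.120% for Klotho in neurons, 52.2% between vehicle cultures and 63.6% between Klotho cultures.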

How the results depend on the processing

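The number of arrays limits precision, and signals near background limit the second probes of Gria2 and Grik3 and the astrocyte values of Grik1 and Grik2. The count of called probes for Klotho was 0 in neurons, in astrocytes and for their difference, also in the 18, 21 and 26 alternatives run, which by itself says nothing of stability. Between vehicle cultures it was 11, 12 with quantile normalization or median scaling, and 7 with probes above background on all compared arrays or with 1 probe per symbol, both of which test fewer probes. By row it was 5, 6 with quantile normalization (5 higher, 1 lower), and 3 with 1 probe per symbol or with median scaling, and 3 to 5 when each replicate was left out in turn, the 3 coming without astrocyte control replicate 3. The Gria1 difference between the Klotho effects turned to -0.57 with arrays grouped by the value table and to -0.175 SD units in the value table itself, and the cause was not tested. Grik5 between Klotho cultures had an adjusted p of 0.0938 with quantile normalization (-0.60) and of 0.0643 in the value table (-0.19 SD units). The other genes called between cultures kept direction and call under every alternative in which they were tested. With the replicate block on the paired numbers, 0 probes were called for Klotho in neurons, in astrocytes and for the difference, 11 between vehicle cultures and 12 between Klotho cultures, and Gria1 for the difference was 1.40 (adjusted p = 0.316, limma). The block changed no call, and it does not apply to the rows, which divide the numbers. Normexp correction was run on median in place of mean signals, a choice made after seeing the data, as were leaving out neuron replicate 1 and grouping the partner genes' arrays by the value table.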
